A study of Homo sapiens with 15 samples.

Results

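DNA methylation of the 45S ribosomal DNA unit was compared between control cells and cells collected 14 days after the onset of exposure to hexavalent chromium. The comparison used 9 of the 15 libraries of the study, chosen by their titles: all 6 control libraries, and the 3 libraries of day 14. A human lymphoblastoid cell line was used, that is, B lymphocytes immortalised with Epstein-Barr virus and grown in RPMI medium. The exposed cells received 5 µM hexavalent chromium for 24 h, and the labels name no agent for the controls, which carry replicate numbers in a first and a second set of 3. Days 3 and 7 of the same exposure were not part of the comparison. All 9 libraries came from this 1 line, so they say nothing on how other cells respond. The labels number 3 replicates in each of these sets, but their protocol speaks of fewer biological replicates, so that some libraries may repeat a culture. No label ties a replicate to its own culture. Each n counts libraries, and the SDs and p-values measure the spread between them, which may be technical.

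Ribosomal DNA is present as tandem repeats on the short arms of several chromosomes. RNA polymerase I transcribes each repeat into a precursor that carries, from its start, the 5' external transcribed spacer (5' ETS), the 18S rRNA, internal transcribed spacer 1 (ITS1), the 5.8S rRNA, internal transcribed spacer 2 (ITS2) and the 28S rRNA. The spacers are cut out and degraded while the rRNAs are built into ribosomes. In most cells some copies are silent and methylated at CpG sites while others are open and transcribed. Methylation of the promoter and the sequence upstream of it is known to accompany silent copies. A percentage measured in bulk DNA is a mean over all copies and all cells, so that more methylated copies, more methylation within each copy and a change in the mix of cells cannot be told apart.

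In bisulfite sequencing a methylated cytosine is still read as C, whereas an unmethylated one is deaminated and appears as T. The methylation level of a CpG site is here the percentage of C among its C and T reads. Positions are those of the deposited files, on the GenBank record of the human ribosomal DNA repeat unit, with position 1 at the start of the precursor and negative positions upstream. Of 1381 CpG positions listed in any of the 9 libraries, 910 held at least 10 reads in all 9 and were tested. They lay in 10 regions, joined wherever neighbouring sites were at most 300 bp apart, since PCR products covered separate stretches. The tested sites fell into 7 parts of the unit, with 27 sites upstream, 299 in the 5' ETS, 83 in 18S, 170 in ITS1, 17 in 5.8S, 66 in ITS2 and 248 in 28S. Cell identity could not be checked, because these amplicons hold no gene that marks a cell type.

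Between 48348068 and 92711708 C or T calls were listed per library, and the totals of the groups overlapped. Median coverage at the tested sites was 857 to 1344.5 reads in the controls, and 1053, 1659.5 and 3136 reads in day 14 replicates 1, 2 and 3. The day 14 libraries stood apart in their conversion control. At CHG and CHH cytosines, which are rarely methylated in such cells and so count as unconverted when read as C, the controls had 0.674% to 1.38% C. The day 14 libraries had 5.45%, 5.59% and 7.54% in the same order, with no overlap (6.19% ± 1.17, SD, n = 3, against 1.04% ± 0.287, n = 6; two-sided exact permutation p = 0.0238, the smallest that 6 against 3 libraries can give). This share was 7.61% at CHG and 5.40% at CHH cytosines in the day 14 libraries, against 1.48% and 0.794% in the controls. Unconverted cytosine adds to the apparent methylation of a CpG site, so the share within 100 bp of the tested sites, called the local unconverted share, is given beside the results. Its part in them was not tested beyond the subsets and subtractions named there. The labels state that several libraries were combined in each sequencing mix but not which, so that mix and group cannot be told apart.

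At day 14, methylation differed from control in both directions and in long blocks. It was higher in most of the 18S gene, in the 5.8S gene, in the first part of the 5' ETS, at the start of ITS2 and in some stretches of 28S. It was lower in most of the 5' ETS, in most of ITS1 and in other stretches of 28S, among them its 3' end. Of the 910 sites, 636 were called in edgeR (69.9%, Benjamini-Hochberg adjusted p under 0.05), 222 higher (24.4%) and 414 lower (45.5%). At 547 sites (60.1%) all 3 day 14 libraries lay outside the range of the 6 controls, above it at 202 (22.2%) and below it at 345 (37.9%). Calls did not all mean large differences: 561 of the 636 called sites differed by at least 10 percentage points, 194 upward and 367 downward.

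The mean over all 910 sites was less distinct than the single sites. It was 44.9%, 47.7% and 49.9% at the lowest, median and highest control and 39.6%, 42.5% and 46.9% in day 14 replicates 1, 2 and 3. The ranges overlapped (two-sided exact permutation p = 0.0952). Fewer sites were at intermediate levels at day 14. Sites between 20% and 80% methylation made up 74% to 78.6% of all in the controls and 56.6%, 67.0% and 63.6% in day 14 replicates 1 to 3, with no overlap (exact permutation p = 0.0238).

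**Figure D1:**
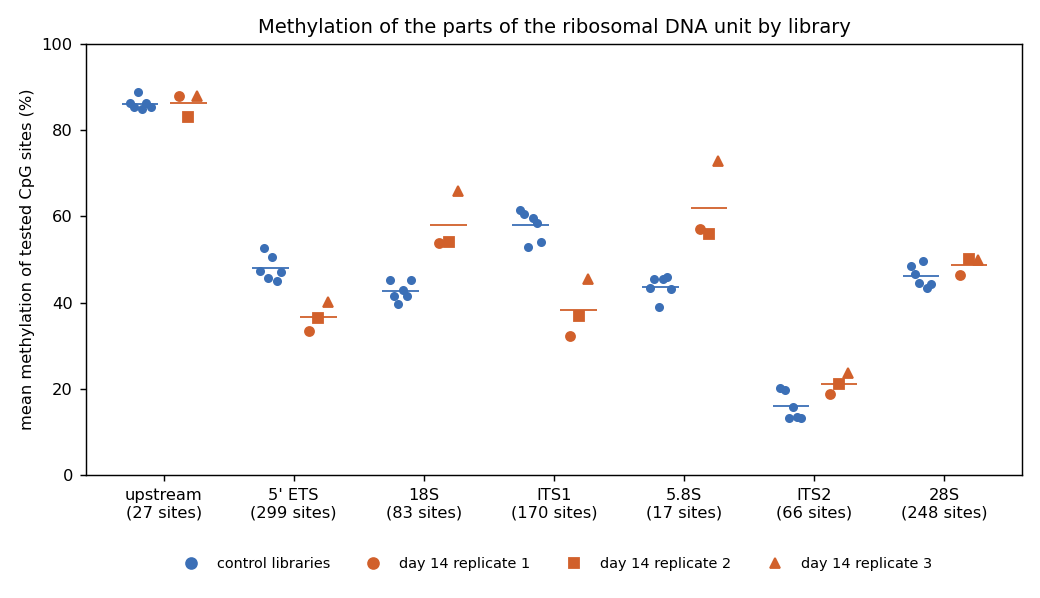
Mean methylation (%, vertical axis) of the tested CpG sites in each of the 7 parts of the ribosomal DNA unit (horizontal axis, number of sites in brackets), with 1 point per library and lines at the group means of 6 control and 3 day 14 libraries. All day 14 libraries lay below all controls in the 5' ETS and ITS1 and above them in 18S and 5.8S.

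Upstream of the start site, the 27 tested sites from -982 to -719 were not called as a group. Their mean was 85.0%, 85.8% and 88.8% at the lowest, median and highest control and 87.8%, 83.0% and 88.0% in day 14 replicates 1 to 3 (86.2% ± 1.38, n = 6, against 86.3% ± 2.86, n = 3, SD; exact permutation p = 1). In edgeR 1 site was higher and 1 lower. The lower one, at -982, was 98.1%, 98.6% and 100% at the lowest, median and highest control, and 95.1%, 90.2% and 88.4% at day 14 (adjusted p = 0.000152). Its lowest coverage was 43 reads. The local unconverted share here was 1.02% in the controls and 14.9% at day 14. The promoter itself, just before the start, held no tested site.

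The 5' ETS was lower at day 14 as a whole and higher at its beginning. The mean of its 299 sites was 45.0%, 47.2% and 52.7% at the lowest, median and highest control, and 33.5%, 36.5% and 40.1% in day 14 replicates 1 to 3. All day 14 libraries lay below all controls, by 11.4 percentage points between means (48.1% ± 3.00, n = 6, against 36.7% ± 3.29, n = 3, SD; exact permutation p = 0.0238, adjusted over the 7 parts 0.0417). In edgeR 163 sites were lower and 40 higher. Summing all reads, so that deep sites weighed most, gave a difference of -4.99 points that did not pass (adjusted p = 0.3). Leaving out any 1 library ended this call and those of the other parts, because the smallest unadjusted p of the exact permutation test is then 0.0357 (a control left out) or 0.0714 (a day 14 library left out). The spacer was covered in 3 regions that behaved differently.

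The first of these, 21 sites from 296 to 659, was the most weakly methylated and was higher at day 14. It was 24.9%, 32% and 37.8% at the lowest, median and highest control and 46.3%, 49.5% and 65.3% in day 14 replicates 1 to 3. The log2 ratio of methylated to unmethylated reads was higher by 1.48 (limma, adjusted p over the 10 regions = 0.000882), and 15 sites were called higher with none lower. Site 296 was 13.6%, 21.3% and 27.9% at the lowest, median and highest control and 48.3%, 47.1% and 78.0% at day 14 (edgeR, adjusted p = 0.000183). Site 338 was 19.2%, 29.2% and 37.5% in the controls, in the same order, and 55.7%, 56.6% and 82.7% at day 14 (edgeR, adjusted p = 0.000301). At both sites replicate 3 was far above the other day 14 libraries, and all 3 lay above every control. The local unconverted share of the region was 0.405% in the controls and 4.03% at day 14, and the means differed by 21.8 points.

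Between 1086 and 1182, 16 sites stood at 72.7%, 76.3% and 84.6% at the lowest, median and highest control and at 92.0%, 81.2% and 90.8% at day 14, so replicate 2 lay within the control range. The region passed in limma (log2 difference 1.16, adjusted p = 0.0342) with 2 sites called, both higher. Its local unconverted share was 1.31% in the controls and 25.3% at day 14. The call ended without control replicate 1 of either set, without control replicates 2 or 3 of the second set and without day 14 replicates 1 or 3 (log2 difference 0.82 to 1.17, adjusted p up to 0.144). It also ended when the local unconverted share was subtracted (0.80, adjusted p = 0.153).

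The third and longest stretch of the spacer, 262 sites from 1561 to 3439, held all of its lower sites. It was 44.1%, 46.9% and 52.1% at the lowest, median and highest control and 28.9%, 32.7% and 35.0% at day 14, with no overlap (log2 difference -1.47, limma adjusted p = 3.15e-05), and 163 sites were lower and 23 higher. Site 2792 fell from 65.8%, 73.1% and 77.9% at the lowest, median and highest control to 13.9%, 17.8% and 31.2% (edgeR, adjusted p = 6.49e-07). Site 2804 was 49.3%, 59.6% and 64.7% in the controls and 5.26%, 13.8% and 9.96% at day 14 (edgeR, adjusted p = 3.06e-07). These neighbours, the largest falls in the spacer among sites with at least 100 reads, had a local unconverted share that was not higher at day 14 (2.24% at site 2804, against 2.85% in the controls). The longest run of lower calls here was 26 consecutive sites from 2830 to 2946, at 40.7% ± 7.32 (SD, n = 6) in the controls and at 11%, 8.22% and 6.80% in the day 14 libraries. A further 25 sites from 3141 to 3430, close to the 18S gene, were at 20.2% ± 4.69 in the controls and at 3.84%, 2.33% and 3.69% at day 14.

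Within this stretch the difference was smaller at deeply covered sites. Its 72 sites with at least 10000 reads in every library, from 1561 to 2162, were at 47.0%, 55.9% and 58.8% at the lowest, median and highest control and at 41.9%, 51.2% and 53.9% at day 14, and the groups overlapped; 17 of these sites were higher and 15 lower. The other 190 sites were at 42.6%, 43.5% and 49.6% in the controls and at 24.0%, 25.6% and 27.8% at day 14, with 6 higher and 148 lower. When all reads of the stretch were summed, the log2 difference was -0.30 and no longer passed (limma, adjusted p = 0.2925). Depth and position coincide here, since the deep sites lie in its first portion, and their parts cannot be told apart. Site 2391, nearly unmethylated in the controls, was higher at day 14. It was 0%, 1.97% and 3.71% at the lowest, median and highest control and 4.54%, 14.6% and 27.7% at day 14 (edgeR, adjusted p = 0.001), in a neighbourhood where the unconverted share was 4.31% in the controls and 9.06% at day 14. Its difference of 13.7 points was 7.62 without day 14 replicate 3 and 8.44 with the local unconverted share subtracted.

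The 18S gene, which encodes the rRNA of the small ribosomal subunit, was higher at day 14 over most of its tested length. Its 83 sites averaged 39.7%, 42.3% and 45.2% at the lowest, median and highest control and 53.7%, 54.1% and 65.8% at day 14. The day 14 mean was 15.2 points higher (57.9% ± 6.88, n = 3, against 42.7% ± 2.20, n = 6, SD; exact permutation p = 0.0238, adjusted 0.0417), and 60 sites were higher and 3 lower in edgeR. With reads summed the difference was 7.15 points and did not pass (adjusted p = 0.1667). It was also the best converted part, with a local unconverted share of 0.312% in the controls and 0.651% at day 14.

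The rise was largest in the 5' portion of the gene. All 31 tested sites from 4135 to 4507 were higher, and this region was 42.5%, 45.9% and 53.0% at the lowest, median and highest control and 75.8%, 70.2% and 84.7% at day 14 (log2 difference 2.14, limma adjusted p = 4.52e-05). Site 4154 was 37.5%, 41.3% and 48.9% at the lowest, median and highest control and 81.9%, 73.3% and 93.2% at day 14 (edgeR, adjusted p = 1.66e-05), on at least 6119 reads. Site 4137 was 41.5%, 45.0% and 52.5% in the controls and 84.2%, 76.0% and 94.5% at day 14 (edgeR, adjusted p = 1.92e-05). All day 14 libraries lay more than 20 points above the highest control at both sites, with a local unconverted share of 0.286% in the controls and 4.61% at day 14.

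Further along the gene, from 4861 to 5514, the day 14 libraries spread widely. Its 52 sites averaged 38.1%, 40.2% and 44.1% at the lowest, median and highest control and 40.6%, 44.5% and 54.6% at day 14, so that replicate 1 lay within the control range. In edgeR 29 of these sites were higher and 3 lower. The lower ones were at the very end, where 5500 was 59.8%, 62.0% and 63.6% in the controls and 35.4%, 39.5% and 45.6% at day 14 (edgeR, adjusted p = 2.01e-05), and 5514 was 58.6%, 60.3% and 62.8% and then 33.2%, 37.7% and 42.5% (edgeR, adjusted p = 1.22e-05). Both held at least 54543 reads in each library. The last called site before them, 5456, was higher by contrast, at 34.9% in the controls and 44.5% at day 14 on average. The direction thus switched within 30 bp inside the 18S gene, and the lower block that began at 5486 ran on into ITS1.

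**Figure D2:**
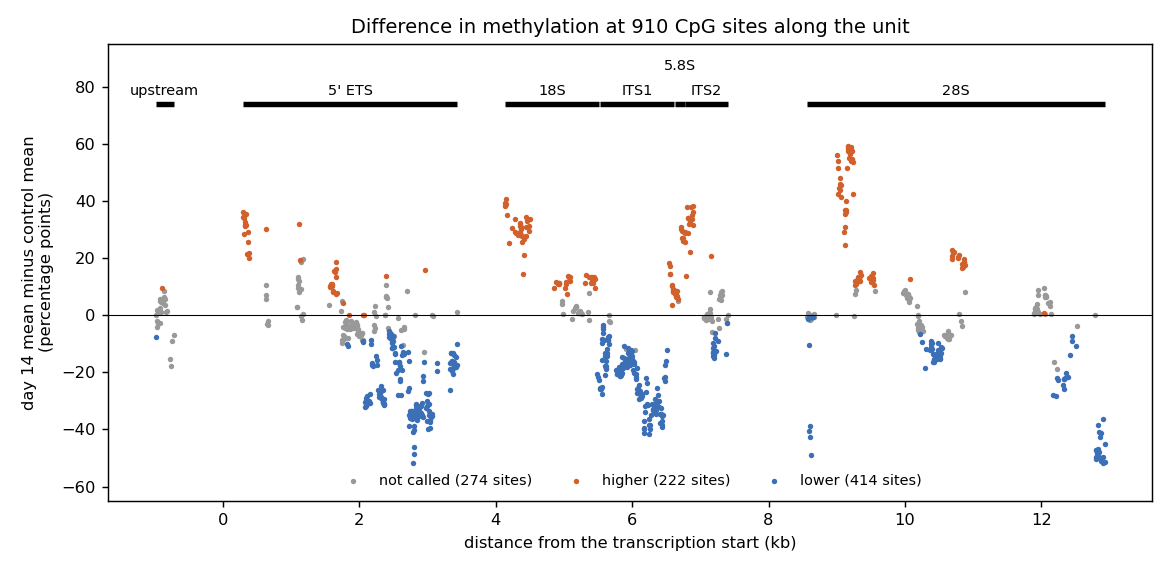
Day 14 mean minus control mean in percentage points (vertical axis) for each of the 910 CpG sites against its distance from the transcription start in kb (horizontal axis), coloured by its call in edgeR, with bars for the tested span of each part. The 222 higher and 414 lower sites form alternating blocks, and the start and the end of the 5' ETS differ in direction.

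ITS1, the spacer between 18S and 5.8S, was lower at day 14 at most sites. Its 170 sites averaged 53.0%, 59.1% and 61.6% at the lowest, median and highest control and 32.3%, 36.9% and 45.5% at day 14, with no overlap. The mean was 19.7 points lower (38.2% ± 6.70, n = 3, against 57.9% ± 3.57, n = 6, SD; exact permutation p = 0.0238, adjusted 0.0417), with 153 sites lower and 12 higher in edgeR. With reads summed the difference was -8.19 points and did not pass (adjusted p = 0.0833). The longest run of calls in 1 direction along the whole unit lay here, 68 consecutive lower sites over 457 bp from 6052 to 6508, at 49.5% ± 4.92 (SD, n = 6) in the controls and at 11.6%, 18.9% and 26.6% at day 14.

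Site 6181 fell the most in this spacer among sites with at least 100 reads, from 44.6%, 55.8% and 63.6% at the lowest, median and highest control to 8.05%, 15.1% and 18.4% (edgeR, adjusted p = 2.52e-06). Site 6169 fell from 41.9%, 53.8% and 61.9% to 10.5%, 15.8% and 22.3% (edgeR, adjusted p = 8.98e-06). Near the 5.8S gene the direction turned: site 6547 was 44.7%, 49.2% and 56.7% in the controls and 67.9%, 64.7% and 71.3% at day 14 (edgeR, adjusted p = 0.00158). Its neighbour 6560 was 58.8%, 61.6% and 70.2% and then 78.1%, 74.8% and 80.2% (edgeR, adjusted p = 0.00238). These sites belong to a run of 19 consecutive higher sites from 6547 to 6667 that crosses into 5.8S. The local unconverted share of ITS1 was 4.81% in the controls and 9.82% at day 14. With this share subtracted, the difference was -44.23 points at 6181, -39.79 at 6169, 16.1 at 6547 and 13.22 at 6560. Its part in the other differences of ITS1 was not tested. The 21 sites that reached 10000 reads in every library, at both ends of the spacer, were at 69.2% to 72.4% in the controls and 63.0%, 63.9% and 65.8% at day 14. This mean combined opposite directions, since 8 of them were higher and 13 lower, each with all day 14 libraries outside the control range. The other 149 sites were at 50.7% to 60.2% and then 28%, 33.1% and 42.6%, with 4 higher and 140 lower.

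The 5.8S gene, whose rRNA joins the 28S rRNA in the large subunit, was higher at day 14 throughout. Its 17 sites averaged 38.9%, 44.4% and 46.0% at the lowest, median and highest control and 57.1%, 55.8% and 72.9% at day 14. At all 17 sites the day 14 libraries lay above every control, and 16 were called. The mean was 18.2 points higher (61.9% ± 9.52, n = 3, against 43.7% ± 2.63, n = 6, SD; exact permutation p = 0.0238, adjusted 0.0417), and 8.18 points with reads summed, which did not pass (adjusted p = 0.0833). The gene held a step in its methylation, seen in every control and in day 14 replicates 1 and 2. The 8 sites nearest ITS1 averaged 66.7% ± 2.44 in the controls and 74.7%, 72.3% and 73.8% at day 14, whereas the 9 sites from 6715 to 6775 averaged 23.2% ± 3.35 in the controls and 41.4%, 41.2% and 72.0% at day 14. In replicate 3 the step had almost vanished.

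Site 6723 shows this second group, at 22.4%, 27.7% and 30.7% at the lowest, median and highest control and 48.2%, 46.4% and 79.5% at day 14 (edgeR, adjusted p = 0.000727). Site 6775, at the end of the gene, was 18.2%, 24.1% and 29.5% in the controls and 43.7%, 42.0% and 73.4% at day 14 (edgeR, adjusted p = 0.000675). Its local unconverted share was 0.735% in the controls and 1.06% at day 14. Without replicate 3 the difference at 6723 went from 30.8 to 20.02 points and that at 6775 from 29.05 to 18.88 points. The 8 sites nearest ITS1 held at least 53592 reads in every library and the other 9 at least 1413. Depth thus stepped at the same place as methylation, and the parts of depth and position cannot be told apart.

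The higher block continued into ITS2, the spacer before 28S, and ended there. The first 15 sites of ITS2, from 6782 to 6894, were all called higher, at 18.4%, 26.3% and 32.4% at the lowest, median and highest control and at 50.8%, 53.2% and 70.5% at day 14. Site 6782 was 21.1%, 28.5% and 34.5% in the controls and 47.0%, 46.1% and 77% at day 14 (edgeR, adjusted p = 0.0011), and its difference went from 28.8 to 18.68 points without replicate 3. The other 51 sites, from 7051 to 7405, averaged 12.8% ± 2.91 (SD, n = 6) in the controls and 9.32%, 11.7% and 9.84% at day 14, and 16 of them were lower and 1 higher. That 1 site, 7154, was 16.2%, 21.2% and 39.2% in the controls and 47.7%, 43.2% and 46.7% at day 14 (edgeR, adjusted p = 0.0053). It missed the threshold when only the first set of controls was used (adjusted p = 0.0741). Site 7203 fell from 18.9%, 24.5% and 30.6% to 6.80%, 11.5% and 9.02% (edgeR, adjusted p = 0.000562).

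ITS2 as a whole, with 16 sites higher and 16 lower, did not pass. Its 66 sites averaged 13.1%, 14.6% and 20.2% at the lowest, median and highest control and 18.8%, 21.2% and 23.6% at day 14, where replicate 1 lay within the control range (difference 5.25 points, exact permutation p = 0.0952, adjusted 0.133). The region that runs from 18S through ITS2, 305 sites from 4861 to 7405, joined blocks of both directions, with 73 higher and 172 lower. Its log2 difference of -0.61 passed in limma (adjusted p = 0.0246), but its mean percentage did not separate the groups (exact permutation p = 0.0714). The call ended without day 14 replicate 1 (-0.40, adjusted p = 0.144) or replicate 2 (-0.59, adjusted p = 0.0616), with either set of controls alone (adjusted p = 0.0898 and 0.1077), with at least 100 or 1000 reads (0.0812 and 0.5406) and with a local unconverted share under 5% (0.7056). The direction turned when reads were summed over the region (0.22, adjusted p = 0.2925). It also turned with a share under 2% (0.47, adjusted p = 0.0728), a fit on 64 of the 305 sites, none of them in ITS1. With the share subtracted the region still passed, and the log2 difference was larger (-1.137, limma adjusted p = 0.0004907).

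The 28S gene, which encodes the main rRNA of the large subunit, held nearly equal numbers of higher and lower sites. Its 248 sites averaged 43.4%, 45.5% and 49.7% at the lowest, median and highest control and 46.5%, 50% and 49.8% at day 14 (difference 2.61 points, exact permutation p = 0.143, adjusted 0.167), with 77 sites higher and 78 lower in edgeR. The mean hid 4 regions that differed from each other. It also hid a dependence on depth: over the 28S sites that reached 100 reads in every library, which leave out nearly all of the higher stretch described next, the day 14 mean was lower by 7.99 points and passed (exact permutation, adjusted p = 0.0286).

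The largest mean rise of any region lay in 28S from 8993 to 9561. Its 63 sites averaged 32%, 37.8% and 43.5% at the lowest, median and highest control and 69.9%, 69.0% and 72.9% at day 14, with 58 sites higher and none lower (log2 difference 2.17, limma adjusted p = 3.33e-06). Within it, 36 consecutive sites from 9009 to 9236 stood at 35.2% ± 5.22 (SD, n = 6) in the controls and at 84.9%, 80.7% and 85.7% at day 14. The libraries also differed here in other ways. The region took 0.00993% to 0.153% of the reads at tested sites in the controls and 10.2% to 14.2% at day 14, with a median of 197 reads per site in the controls and 15392 at day 14. Its local unconverted share was 2.31% in the controls and 21.1% at day 14. With the local unconverted share subtracted, the log2 difference was 1.63 and passed (limma, adjusted p = 1.751e-05). The part of coverage or conversion in the 32.6 points between the means was not tested further. The log2 difference was 1.43 with reads summed and passed (limma, adjusted p = 0.0009002). Only 9 of the 63 sites had a share under 2% in all libraries. Over these the log2 difference was 0.71 and passed (limma, adjusted p = 0.0266). They all lay at 9472 or beyond, so this fit says nothing on the run from 9009 to 9236. Only 1 site, 9248, held 100 reads in all libraries. That site stayed nearly unmethylated, at 0.368% in the controls and 0.108% at day 14, and was not called.

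The gene's tested sequence was lower at its 3' end, and its other end, from 8568 to 8666, is described below. The 3' end, 64 sites from 11892 to 12931, averaged 53.5%, 61.2% and 68.0% at the lowest, median and highest control and 40.0%, 43.0% and 44.9% at day 14, with no overlap (log2 difference -1.25, limma adjusted p = 0.000882), with 35 sites lower and 1 higher. Its last 20 sites, from 12794 to 12931, were all lower, at 61.4%, 74.5% and 79.97% at the lowest, median and highest control and at 20.02%, 28.8% and 32% at day 14. These 20 sites held at least 10693 reads in every library.

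Site 12907 fell from 69.6%, 84.4% and 90.3% at the lowest, median and highest control to 24.0%, 33.4% and 37.2% (edgeR, adjusted p = 1.05e-06), the largest fall of any site with at least 100 reads in all libraries. Site 12931 fell from 68.3%, 82.8% and 88.0% to 22.6%, 31.6% and 35.3% (edgeR, adjusted p = 7.36e-07). The local unconverted share at 12907 was 0.910% in the controls and 2.30% at day 14. With this share subtracted, the difference at 12907 went from -51.72 to -53.18 points (edgeR, adjusted p = 3.085e-06).

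Across the 21 sites from 8568 to 8666 the day 14 libraries disagreed with each other. Their mean was 16.9%, 17.9% and 18.1% at the lowest, median and highest control and 0.667%, 16.1% and 8.56% in day 14 replicates 1 to 3 (log2 difference -2.44, limma adjusted p = 0.000504), with 12 sites lower. The median site difference was only -0.749 points. Lower calls included nearly unmethylated sites, such as the 3 from 8632 to 8638, at 0.706% in the controls and 0.0205% at day 14. The controls held 4 methylated sites between 8590 and 8624, at 80.3% to 88.6% on average, among 17 sites at 0.992% to 3.49%. At those 4 sites replicate 1 had 1.73%, replicate 2 had 81.3% and replicate 3 had 42.1%, while the 17 others were at 0.416%, 0.771% and 0.680% in these libraries. At site 8624 the controls were at 88.5%, 95.4% and 96.0% and day 14 at 0.415%, 86.9% and 46.1% (edgeR, adjusted p = 0.00652), a call that missed the threshold with only the second set of controls (adjusted p = 0.0663). Without replicate 1 its difference went from -48.9 to -26.9 points. Replicate 1 also had a local unconverted share of only 0.0662%, against 2.30% to 3.20% in the controls, and the region took 0.0445% to 0.125% of reads at day 14 and 0.144% to 0.470% in the controls. The region no longer passed with reads summed (log2 difference -2.58, adjusted p = 0.0922), and its direction turned when the local unconverted share was subtracted (0.42, adjusted p = 0.301).

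The middle of the gene, 100 sites from 9972 to 10879, was not called as a whole (47.7% ± 3.11, n = 6, against 47.4% ± 2.09, n = 3, SD; limma adjusted p = 0.937) and was made of shorter blocks. All 27 sites from 10362 to 10537 were lower, at 60.4% ± 4.46 in the controls and 43.2%, 48.1% and 50.3% at day 14. Of the 16 sites from 10774 to 10879, 12 were higher, at 41.3% ± 2.23 in the controls and 49.8%, 63.3% and 52.9% at day 14. Site 10696 was 31.9%, 32.8% and 35.0% at the lowest, median and highest control and 41.1%, 72.7% and 53.7% at day 14 (edgeR, adjusted p = 0.00252). Site 10713 was 28%, 29.4% and 31.9% in the controls and 35.9%, 69.6% and 50.4% at day 14 (edgeR, adjusted p = 0.0032). Here replicate 2 was the highest, unlike in 18S and 5.8S, and leaving it out brought the difference at 10696 from 22.7 to 14.25 points and that at 10713 from 22.3 to 13.46 points.

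**Figure D3:**
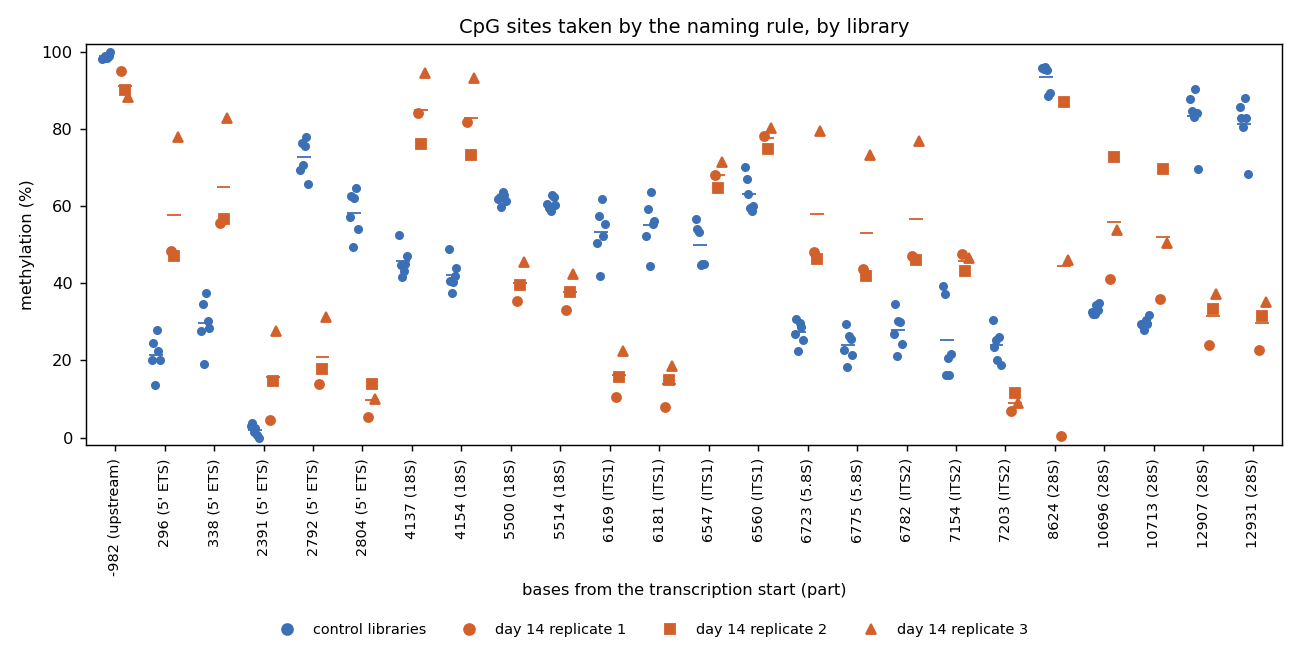
Methylation (%, vertical axis) of the 24 sites chosen by the naming rule, ordered by their distance in bases from the transcription start (horizontal axis, part in brackets), with 1 point per library and short lines at the means of 6 control and 3 day 14 libraries. The rule chose most of these sites for having all 3 day 14 libraries outside the control range, so that separation is no finding; replicate 3 stands well above the other two at 296, 338, 6723, 6775 and 6782.

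Differences varied with the level from which a site started. Sites were grouped by their control mean, and the values below describe the groups without a test, since the controls both set the groups and enter the difference. Sites that started under 10% stayed low: these 50 sites averaged 4.31% in the controls and 4.04%, 5.48% and 4.87% in day 14 replicates 1 to 3, and 42 of them were under 10% in all 3. Sites that started at 90% or over mostly stayed high. These 35 averaged 95.5% in the controls and 89.0%, 93% and 93.5% at day 14, and 26 of them were within 10 points of their control mean in all 3 libraries. At these extremes 9 of the 50 and 18 of the 35 sites were called.

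Sites with intermediate starting levels held most of the calls but were also most of the tested sites. Over all 910 sites 24.4% were called higher and 45.5% lower. The 163 sites starting from 10% to 30% were at 20.7% in the controls and 26.9%, 29.0% and 34.8% at day 14, with 63 higher (38.7%) and 66 lower (40.5%). The 289 sites from 30% to 50% were at 41.4% and then 36.0%, 38.7% and 42.3%, with 98 higher (33.9%) and 105 lower (36.3%). From 50% upward lower calls were more frequent. The 262 sites from 50% to 70% were at 59.5% in the controls and 41.9%, 45.9% and 52.0% at day 14, with 46 higher (17.6%) and 165 lower (63.0%). The 111 sites from 70% to 90% were at 79.7% and then 63.1%, 64.8% and 69.1%, with 7 higher (6.31%) and 59 lower (53.2%). The median site difference in these last groups was -15.3 and -10.2 points. The second of these moved with the sites used, to -15.87 points (53 sites) and -47.71 points (22 sites) with at least 100 and at least 1000 reads. It moved to -22.16 (13 sites) and -36.87 (38 sites) with a local unconverted share under 2% and under 5%, and to -17.99 with that share subtracted. From 50% to 70% the median was -10.08 with at least 1000 reads (130 sites) and -8.005 with a share under 2% (47 sites). When the groups were set by one set of controls and the difference was taken from the other, the medians were -15.9 and -14.9 points from 50% to 70% and -11.5 and -11.0 points from 70% to 90%.

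The same starting level went with opposite differences in different parts. In 28S sites starting from 10% to 30% were mostly higher and sites starting from 70% to 90% mostly lower. Its 19 sites starting under 10% went from 1.14% to 0.563% on average (none higher, 7 lower). The 37 sites starting from 10% to 30% went from 25.5% to 58.2% on average (24 higher, 4 lower). Their median site difference was 51.7 points, against 32.8 points between the means. The 35 sites starting from 70% to 90% went from 79.6% to 47.2% on average (none higher, 28 lower), with a median site difference of -38.9 points. These were different stretches of the gene, as 20 of the 37 lay between 8993 and 9561 and 26 of the 35 between 11892 and 12931. The stretch from 8993 to 9561 had a local unconverted share of 21.1% at day 14. In 18S the 58 sites from 30% to 50% were at 39.3% and then 57.2%, with 48 higher and none lower. In ITS1 the 53 sites of the same starting level were at 44.6% and then 21.2%, with 1 higher and 52 lower, and in the 5' ETS 86 such sites were at 41.6% and then 22.4%, with 2 higher and 50 lower. In 5.8S, 9 sites from 10% to 30% were at 23.2% and then 51.5%, all higher, whereas 5 sites of ITS1 with this starting level were at 23.0% and then 7.42%, all lower.

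**Figure D4:**
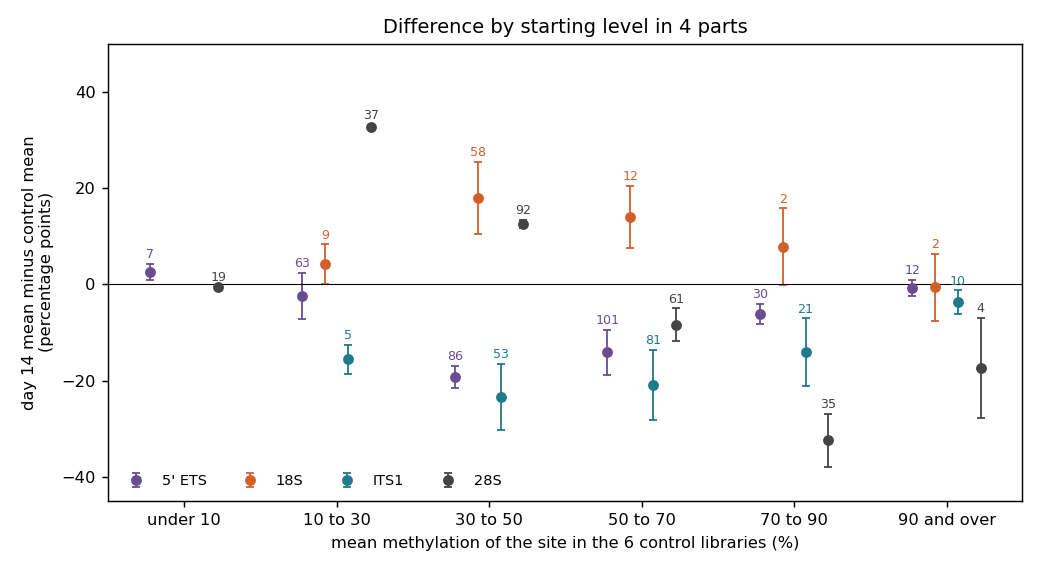
Day 14 mean minus control mean in percentage points (vertical axis) by the control mean of the sites (horizontal axis, %) in the 5' ETS, 18S, ITS1 and 28S, with the number of sites above each point and bars for the SD of the 3 day 14 libraries. From 30% to 50% the points of 18S and 28S lie above 0 and those of the 5' ETS and ITS1 below it.

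Neighbouring sites moved together. Of 717 pairs of adjacent tested sites at most 10 bp apart, both sites were called in 484, and in 483 of these they had the same direction. Such neighbours share reads and are not independent. The exception, 2057 and 2063 in the 5' ETS, differed by -9.52 and 0.056 points on at least 78888 reads, so the second passed the test with almost no difference in level. The calls formed 60 runs in 1 direction, of which 30 held at least 5 sites, 12 higher and 18 lower.

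The day 14 libraries also differed from each other. Replicate 3 was the highest day 14 library at 574 of the 910 sites, including all 83 sites of 18S and 141 of the 170 of ITS1, and replicate 1 was the lowest at 538. Their SD at a site had a median of 4.71 points, against 4.63 points in the controls. In 18S this was 7.85 against 3.18 points, and in 5.8S 16.6 against 2.69 points. Replicate 3 therefore carried the largest rise in 18S and 5.8S and the smallest fall in ITS1. Its unconverted share was the highest of the libraries compared. Near the tested sites, its local unconverted share was the highest at day 14 in 18S (0.808%) and ITS1 (12.2%) but the lowest in 5.8S (5.29%). The part of conversion in its deviation was not tested. Without replicate 3 the difference was 11.2 points in 18S, 12.75 in 5.8S and -23.3 in ITS1.

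Differences were also present where conversion was nearly complete. At 174 sites the local unconverted share was under 2% in all 9 libraries. A fit to these alone called 115 (66.1%, against 69.9% over all 910 sites), with 73 higher and 42 lower. Of these calls 63.5% were higher, against 34.9% over all 910 sites, but the mix of parts also differed. The 18S gene held 71 of the 174 sites and 83 of the 910, and ITS1 none of the 174 and 170 of the 910. In 18S, 71 such sites were at 39.2% to 45.0% in the controls and 51.9%, 53.1% and 64.3% at day 14, with 51 higher and none lower. In 28S, 84 such sites were at 50.2% to 58.2% in the controls and 44.6%, 50.6% and 51.3% at day 14, with 18 higher and 37 lower. In 5.8S all 4 such sites were higher, in the 5' ETS 3 of 4 were lower, and in ITS2 2 of 11 were lower. ITS1 and the upstream sequence held no such site, so their differences could not be measured under that limit. Among 198 sites with a highest local share from 2% to 5%, 16 were higher and 118 lower, 21 of the latter in ITS1, where all 21 such sites were lower.

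**Figure D5:**
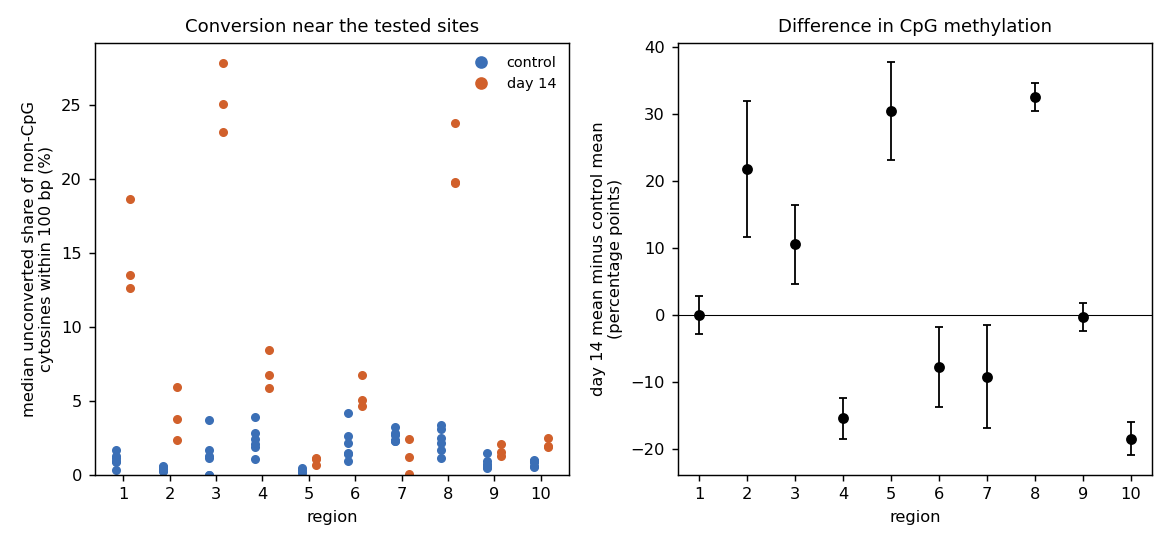
Left, median unconverted share (%) of CHG and CHH cytosines within 100 bp of the tested sites in regions 1 to 10, numbered from the upstream sequence to the end of 28S, with 1 point per library; right, the difference in CpG methylation in percentage points with bars for the SD of the 3 day 14 libraries. Regions 5 and 10, with a day 14 share of 0.959% and 2.09%, had differences of 30.5 and -18.5 points, while regions 3 and 8 had the highest shares at day 14.

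For the 851 sites that also held 10 reads at days 3 and 7, the 3 time points are given side by side, and all share the same 6 controls. The 18S gene was at 42.7% in the controls, 44.0% at day 3, 57.3% at day 7 and 57.9% at day 14. ITS1 was at 57.7% in the controls and then at 62.7%, 36.1% and 38.0%, and the 5' ETS at 46.0% and then at 47.2%, 29.6% and 33.5%. The unconverted share was 1.10% at day 3 and 7.36% at day 7, so the time points with a high share were also those with the large differences, and these cannot be told apart by time. No test between time points was made.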

How the data were processed

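Bisulfite PCR products of the ribosomal DNA unit were sequenced as paired ends, per the labels' protocols. Trim Galore, methylKit, BSMAP 2.90 and SAMtools 1.3.1 are named in the submitters' processing notes, with the builds hg19 and GRCh37. Each deposited file lists cytosines with their read counts for C and T and a methylated fraction, computed by the authors as C over C plus T, for cytosines with at least 10 reads. The deposited counts were used, and percentages were computed from them. The parts of the unit follow the published layout of the GenBank sequence, which was added from outside the files and not checked against the record.

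Methylated and unmethylated counts were fitted per site with edgeR 4.0.16 in R 4.3.3 (quasi-likelihood test, library effects plus a day 14 term on methylation, 6 control and 3 day 14 libraries), with Benjamini-Hochberg adjustment over 910 sites and a threshold of 0.05. Region means of log2((C + 0.5)/(T + 0.5)) were tested with limma 3.58.1. Percentages of parts, regions and unconverted shares were tested by exact permutation, two-sided, of all 84 assignments (numpy 2.4.6). The permutation p-values of parts and regions were adjusted by Benjamini-Hochberg with scipy 1.17.1. The edgeR fit was tested on simulated data.

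Named sites are, for each part, the 2 called sites that rose most and the 2 that fell most, at least 10 bp apart, with at least 100 reads and all day 14 libraries outside the control range on 1 side. Where a part had none, its site with the lowest p was taken, and for each starting level the called site with the largest difference. Other sites and stretches were chosen after their values were seen. The members, lists and tests were chosen with earlier results of these data known. Subtracting the local unconverted share u means (m - u)/(1 - u) for a methylated share m, with values below 0 set to 0. Without molecular identifiers, PCR reads may repeat a molecule, so read counts overstate precision, and no intervals from them are given. The way reads spread over sites differed between replicates by more than sampling noise (chi-square per degree of freedom at least 872), and no library was taken for a copy of another.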

Additional observations from a re-analysis of the deposited data

Results flagged for a closer look

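Among 48 results examined for a control library far from the others, 3 were found, and chance alone marks about 1 in 20 such groups. In the upstream sequence, which is also the first region, 1 control was at 88.8% and the other 5 were between 85.0% and 86.4%. At site 12907 in 28S, 1 control was at 69.6% and the other 5 were between 83.2% and 90.3%, and all 3 day 14 libraries were below each of them. No explanation was tested.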

How the results depend on the processing

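Of 636 site calls, 499 to 624 were made again in the same direction when libraries were left out or 1 set of controls was used, 623 with limma per site, 543 with a quasi-binomial model and 572 with equal coverage. Leaving out 1 library gave 575 to 642 calls (196 to 227 higher, 354 to 423 lower), 6 to 8 regions, 0 parts and an unconverted share 4.479 to 5.527 points higher. Without 1 library the median site differences were -0.7213 to -0.1143 points (start under 10%), 0.06549 to 5.086 (10% to 30%), -3.28 to 1.707 (30% to 50%), -17.32 to -12.85 (50% to 70%), -13.62 to -9.722 (70% to 90%) and -1.886 to 0.0687 (90% and over). In this range lay -0.455 (under 10%) without control replicate 1 of the first set, and for 90% and over -1.683 without control replicate 2 of the first set, -1.421 without control replicate 3 of the second set and -1.546 without day 14 replicate 3. The unconverted share differed by 5.062 and 5.245 points against the first and the second set of controls, where the exact permutation test cannot go below 0.1.

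The number of parts that passed was 0 with reads summed, with either set of controls and with a replicate block. With fewer libraries or the block, fewer assignments raise the smallest p the exact permutation test can give; with reads summed, deep sites weigh most. Same-numbered controls and day 14 libraries did not deviate together (r from -0.155 to -0.0312 across sites), so the numbers are not taken to pair the samples, and the replicate block gave 622 sites (219 higher, 403 lower) and 8 regions.

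Regions that passed numbered 5 with reads summed, 5 of 8 with at least 100 reads, 4 of 5 with at least 1000 reads (a limit chosen after seeing the data), and 3 of 6 and 5 of 7 with a local unconverted share under 2% and under 5%. Sites called higher numbered 131 of 601 with at least 100 reads. With at least 1000 reads, 237 of 345 sites were called (93 higher, 144 lower), with the share under 2% 115 of 174 (73 and 42), and under 5% 245 of 372 (89 and 156). Fewer sites were tested in each of these.

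Median site differences, in points, were -1.622 (90% and over) with at least 30 reads. With at least 100 reads they were 6.138 (10% to 30%), -15.87 (70% to 90%) and -0.8182 (90% and over). With at least 1000 reads they were -0.7482 (under 10%), 8.583 (10% to 30%), -10.08 (50% to 70%) and -47.71 (70% to 90%). With the share under 2% they were 1.01 (under 10%, reversed on 9 sites), 4.029, 12.09, -8.005, -22.16 and -1.622 in ascending order of starting level. With the share under 5% they were 7.589 (30% to 50%), -36.87 (70% to 90%) and -0.6097 (90% and over), and with the share subtracted -7.429, -17.99 and -3.186 for the same levels. The cause was not tested.

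The log2 difference reversed for the region from 4861 to 7405 with reads summed (0.2199) and with the share under 2% (0.4701), for that from 8993 to 9561 at the 1 site with at least 100 reads (-1.125), and for that from 8568 to 8666 with the share subtracted (0.4172). The cause was not tested. For 28S the difference was -7.987, -20.66 and -7.785 points with at least 100 reads, at least 1000 reads and the share under 5%, each passing, and 28S from 9972 to 10879 passed with at least 1000 reads (-0.5301). Sites from 8993 to 9561 and before 1182 had both low coverage in some libraries and a raised local unconverted share at day 14, which limits what can be said of them.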

Other observations

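The set of CpG sites that could be tested differed between the groups. In total 1097 sites held 10 reads in all 3 day 14 libraries and 995 in all 6 controls, and 187 sites met this in the day 14 libraries but not in all controls, against 85 the other way round. The additional sites of either group are not part of any value given here.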
